A study of Mus musculus with 16 samples.

Results

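The comparison asks where organoids carrying both a HER2 and a PIK3CA mutation differ from what the single mutants would give together. All 16 of the 16 samples of the series enter it. They are mouse mammary organoids, multicellular structures grown in culture from breast cells, in 4 genotypes. WT samples (n = 3) carried neither mutation. The PIK3CA mutants (n = 4) and the HER2 mutants (n = 4) carried one mutation each, and the double mutants (n = 5) carried both. The series title gives the alleles as HER2 V777L and PIK3CA H1047R, and per the labels all cultures received medium with murine epidermal growth factor, B27, N-acetyl-cysteine, Rspo1 and Noggin. The label gives normal breast as the source of WT and tumor breast as the source of every mutant, so genotype and source cannot be told apart in any contrast that uses WT. The promoter or Cre driving the alleles, the age of the mice and whether samples of a genotype came from separate mice were not given in the sources used here, so p-values measure the spread between these samples, which may be technical.

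HER2 is the product of Erbb2, a tyrosine kinase of the epidermal growth factor receptor family that signals to the RAS-ERK and PI3K-AKT pathways. PIK3CA encodes the catalytic subunit p110 alpha of phosphoinositide 3-kinase, which acts below the receptor, and both genes are recurrent sites of activating mutation in breast cancer. In the mammary gland a separate route, from the prolactin receptor through the kinase Jak2 to the transcription factor Stat5, turns on milk protein genes in luminal cells.

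The interaction of a gene was measured on the log2 scale as the double mutant level minus the HER2 mutant level minus the PIK3CA mutant level plus the WT level. It equals the double minus PIK3CA mutant difference minus the HER2 mutant minus WT difference. The latter difference also includes that between tumor and normal source. An estimate of 0 means that the double mutant sits where the sum of the single-mutant changes puts it. A positive estimate means a double mutant level above that sum, and a negative estimate a level below it. The quasi-likelihood test of edgeR was fitted to 24252 genes in all 16 samples, with p-values adjusted over all of them by the Benjamini-Hochberg method and called under 0.05. Levels are in CPM, counts scaled to a common library size, and each replicate list below follows the replicate numbers of the labels.

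Total counts per sample ran from 45545182 to 64168308. On principal components of log2 CPM, double mutant replicates 2 and 3 lay at -35.6 and -10.86 on the second component, apart from the other double mutants, and HER2 mutants split on the third, with replicates 1 and 4 at -104.92 and -64.96 and replicates 2 and 3 at 50.07 and 27.24. Counts of calls are given without double mutants 2 and 3, and also without HER2 mutant 1, the farthest out. Epithelial markers were present in every sample, with summed levels of 10 genes between 2593 and 5560 CPM. Markers of macrophages and other leukocytes summed to 1235 to 4489 CPM in WT and to 233.5 to 767.3 CPM in the mutants. In PIK3CA and double mutants these sums rested on few markers. The mean log2 CPM of the 16 was at most 0.25 in the former and -1.27 in the latter. Cd14, listed here among luminal progenitor genes, averaged 540 CPM in WT, 650 in PIK3CA mutants, 278 in HER2 mutants and 328 in double mutants. How much of the mutant sums is leukocyte RNA was not tested. In bulk samples fewer cells of a type and less RNA per cell cannot be told apart.

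The mutated genes come first. Erbb2 (ENSMUSG00000062312, chromosome 11, 98412470 to 98437716, plus strand) had 153, 171 and 145 CPM in WT, 149, 165, 188 and 171 in PIK3CA mutant, 3385, 2696, 4632 and 3686 in HER2 mutant and 1498, 2751, 2706, 1553 and 1649 in double mutant samples. All samples labelled with the HER2 mutation lay far above all those without it, which matches the labels, although counts per gene do not show which allele was read. Its interaction estimate was -0.93 (SE 0.317, edgeR adjusted p 0.183), which did not pass. Without double mutants 2 and 3 it was -1.31 (SE 0.24, edgeR adjusted p 0.012) and without these and HER2 mutant 1 -1.34 (SE 0.241, edgeR adjusted p 0.00859), both past the threshold. Double mutants 2 and 3 had the highest Erbb2 levels of the double mutants. Leaving them out therefore lowers the estimate and the spread by itself. With limma voom and sample weights Erbb2 also passed, at -1.26 (SE 0.225, limma adjusted p 0.00477). It passed in only these 3 of 13 other settings, and in 0 of 16 fits with 1 sample left out. Pik3ca (ENSMUSG00000027665, chromosome 3, 32397671 to 32468486, plus strand) had 85.7, 75.9 and 82.3 CPM in WT, 91.6, 106, 96.1 and 111 in PIK3CA mutant, 61.4, 67.4, 74.1 and 65 in HER2 mutant and 117, 122, 109, 112 and 114 in double mutant samples. Its estimate was 0.46 (SE 0.141, edgeR adjusted p 0.138), and it passed with DESeq2 at 0.46 (SE 0.137, DESeq2 adjusted p 0.0283) and with limma voom at 0.42 (SE 0.125, limma adjusted p 0.0489). Pik3ca passed in only these 2 of 13 other settings, and in 0 of 16 fits with 1 sample left out.

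Of the 24252 genes, 257 (1.06%) were called: 125 (0.515%) were positive and 132 (0.544%) negative. At an unadjusted p under 0.05 there were 3291. Without double mutants 2 and 3 the count was 998, of which 515 were positive, and 254 of the 257 genes were kept. Without these samples and HER2 mutant 1 it was 1986, with 256 kept. The calls rested unevenly on single samples: leaving out WT 3 left 54, leaving out any of the 4 PIK3CA mutants left 103 to 131, leaving out WT 1 left 117 and leaving out double mutant 4 left 140. Leaving out HER2 mutant 1 gave 343 and leaving out HER2 mutant 4 gave 283. Among the 257, 51 were called in each of the 16 fits that left out 1 sample. With a block for replicate number 33 of the 257 kept the call, and 60 with the block and an offset for GC content and length. Csn2 and Csn1s2a lost the call with both. The losses listed below for single genes leave out both of these settings.

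The called genes had a median absolute estimate of 2.47 log2 units, and 88.3% of them were protein-coding against 63.6% of all tested genes. All 257 had the same sign when the contrast was taken on mean CPM in place of log2, as had 95.3% of all tested genes. The mean of the double mutants was nearer to the PIK3CA mutant than to the HER2 mutant mean for 186 of the 257 (72.4%), against 54% of all tested genes. The double mutant mean lay between those of the single mutants for 108, above both for 59 and below both for 90. Over all tested genes these positions held for 40.6%, 29.2% and 30.2%.

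**Figure D1:**
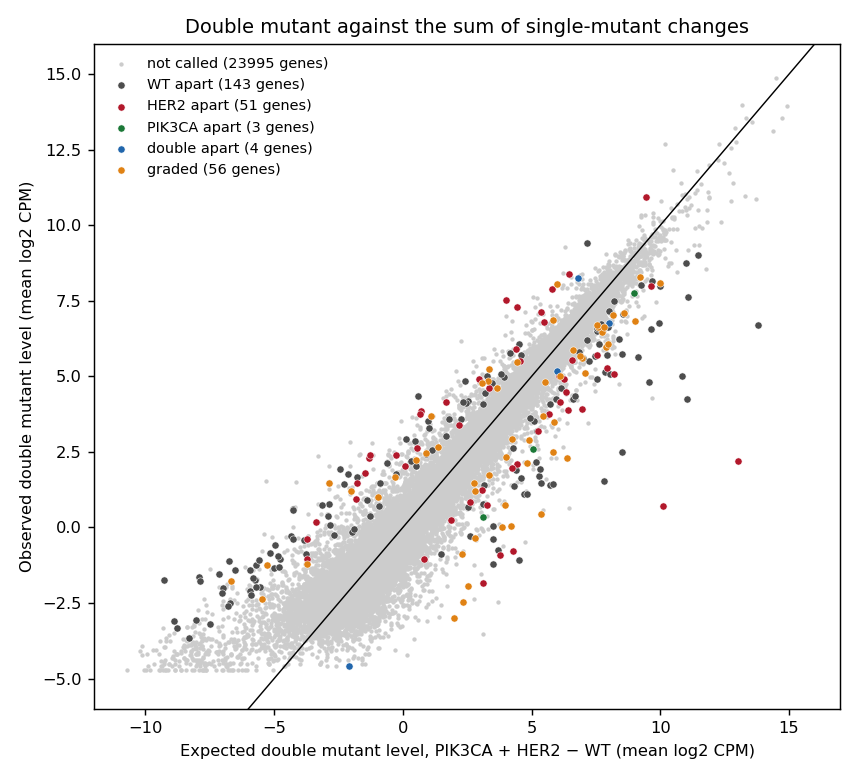
Each point is a gene. The x axis gives the double mutant level expected from the single mutants (PIK3CA plus HER2 minus WT, mean log2 CPM) and the y axis the level observed in the double mutants (mean log2 CPM). The line marks equality, the 257 called genes are coloured by the genotype that stood apart, and the 23995 others are grey. Csn2 and Csn1s2a are the red points farthest to the right of the line.

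An interaction can come from any of the 4 genotypes. A genotype was said to stand apart for a gene when its mean log2 CPM lay outside the other 3 means, with a gap to the nearest of them larger than the range of those 3. Genes with no such genotype are called graded. This sorting uses the tested values and is a description. WT stood apart for 143 called genes (55.6%, against 24.1% of all tested genes), higher for 79 and lower for 64. HER2 mutants stood apart for 51 (19.8% against 14.7%), higher for 25 and lower for 26. Double mutants stood apart for 4 (1.56% against 8.75%) and PIK3CA mutants for 3 (1.17% against 7.6%), and 56 (21.8% against 44.8%) were graded. Without double mutants 2 and 3, WT stood apart for 26.8% of the 998 called genes, against 19.2% of all tested genes. In the same fit the HER2 mutants stood apart for 22.6% against 16.3%, the double mutants for 5.41% against 11.7% and the PIK3CA mutants for 2% against 7.62%. Without HER2 mutant 1 as well, WT stood apart for 23.5% of 1986 called genes and HER2 mutants for 23.6%, each against 18.1% of all tested genes. WT thus no longer led the genotypes without these 3 samples, while double and PIK3CA mutants stayed below their share of all tested genes in the 3 fits.

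**Figure D2:**
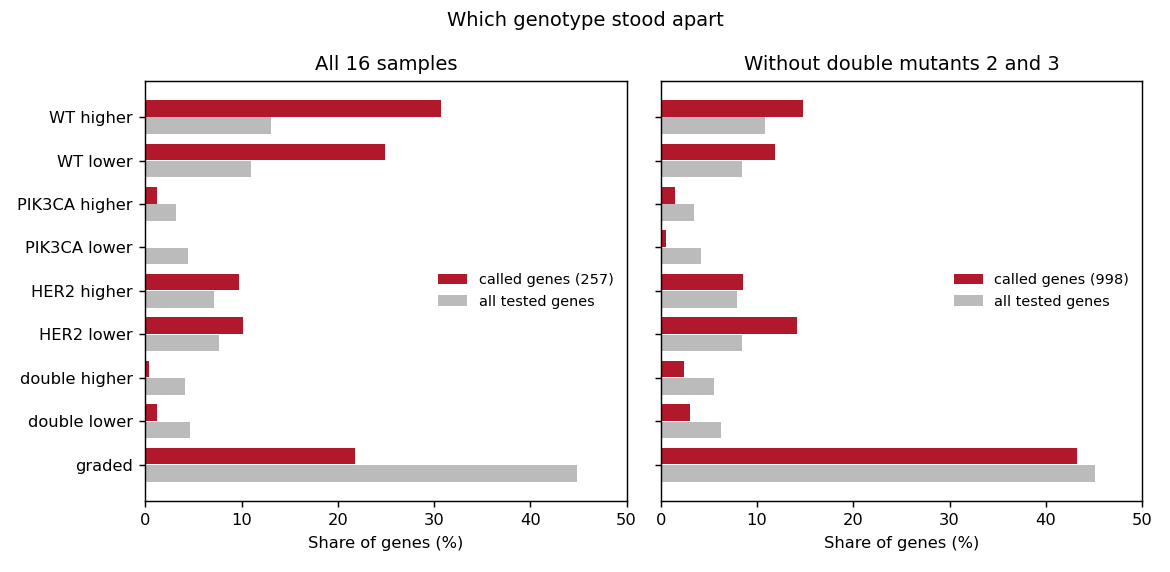
Bars give the share of genes (%) for which each genotype's mean stood apart, higher or lower, and the share that was graded. Red bars are called genes and grey bars all tested genes, on the left for all 16 samples (257 called) and on the right without double mutants 2 and 3 (998 called). WT higher is the longest red bar on the left after which WT lower follows (30.7% and 24.9%), and graded genes are the longest on the right (43.2%).

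The most negative estimates belonged to Csn2 and Csn1s2a, of the caseins that make up most milk protein. Both were abundant in HER2 mutants and low in double mutants. The caseins Csn1s1 and Csn3 did not pass and are given with the other milk protein genes. Csn2, encoding beta-casein (ENSMUSG00000063157, chromosome 5, 87692624 to 87699630, minus strand), had 0.035, 0.1 and 0.334 CPM in WT, 0.143, 0.124, 0.421 and 0.232 in PIK3CA mutant, 3092, 1304, 22709 and 8745 in HER2 mutant and 12.8, 12.1, 0.883, 7.57 and 1.87 in double mutant samples. Every HER2 mutant sample lay far above every double mutant sample, and each double mutant in turn lay above all WT and PIK3CA mutant samples. The sum of the single-mutant changes put the double mutants at 8408 CPM, and their geometric mean was 4.61 CPM. HER2 minus WT was 15.76 (SE 1.66) and double minus PIK3CA was 4.95 (SE 1.03) on the log2 scale, an interaction of -10.80 (SE 1.7, edgeR adjusted p 0.0089). WT libraries held 2, 5 and 20 counts of Csn2, so these log2 values rest on few WT counts.

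Csn1s2a, encoding another casein (ENSMUSG00000061937, chromosome 5, 87774567 to 87788797, plus strand), had 0.0699, 0.1 and 0.367 CPM in WT, 0.461, 0.475, 0.133 and 0.375 in PIK3CA mutant, 237, 107, 3128 and 1122 in HER2 mutant and 6.81, 1.85, 0.412, 1.94 and 1.01 in double mutant samples. The order of genotypes was that of Csn2, and its interaction was -9.88 (SE 1.67, edgeR adjusted p 0.012).

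Stat5 binds the sequence TTCNNNGAA, which reads the same on both strands. The stretches shown here are those that hold it around the start sites of Csn2, Csn1s2a and Cish, a Stat5 target described next. Matches for the other caseins are not given. They are from RefSeq on GRCm38.p6, written in the direction of the gene with the matches in capitals. For Csn2 it is the 250 bases before the start (chr5:87699426-87699675, minus strand). For Csn1s2a it is 30 bases after the start (chr5:87774460-87774489, plus strand), and for Cish 30 bases across it (chr9:107296655-107296684, plus strand).
Csn2: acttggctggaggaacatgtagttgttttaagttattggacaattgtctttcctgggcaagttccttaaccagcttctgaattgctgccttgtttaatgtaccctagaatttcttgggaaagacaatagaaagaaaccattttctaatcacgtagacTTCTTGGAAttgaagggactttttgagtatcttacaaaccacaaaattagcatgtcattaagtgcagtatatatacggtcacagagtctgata
Csn1s2a: ttatagtgctTTCTTAGAAttacaatgact
Cish: agttTTCCTGGAAagTTCTTGGAAatctgt
These start sites are those of RefSeq and do not coincide with the ends of the GENCODE genes given with each gene. Counted from the RefSeq start site, the match of Csn2 begins 93 bases before it, that of Csn1s2a at base 21 and those of Cish at bases 1 and 12. In windows of 300 bases (250 before and 50 after the start), the motif was in at least 1 window of 2582 of 27025 genes (9.55%). Among called genes with a window, it was in 3 of 18 for which HER2 mutants stood apart higher, namely these genes, in 2 of 17 for which HER2 mutants stood apart lower, in 2 of 58 for which WT stood apart higher and in 1 of 50 for which WT stood apart lower. A match describes the letters and shows no binding.

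Cish and Socs2 encode inhibitors that Stat5 induces and that feed back on cytokine receptors, and both had negative interactions. Cish (ENSMUSG00000032578, chromosome 9, 107296026 to 107302784, plus strand) had 7.01, 6.42 and 6.59 CPM in WT, 7.12, 7.27, 9.01 and 9.52 in PIK3CA mutant, 20.3, 37.2, 36.5 and 35.7 in HER2 mutant and 6.08, 12.6, 12.7, 7.63 and 8.17 in double mutant samples. All HER2 mutant samples lay above all others, and the double mutants overlapped the PIK3CA mutants. HER2 minus WT was 2.28 (SE 0.281), double minus PIK3CA was 0.20 (SE 0.23), and the interaction was -2.08 (SE 0.353, edgeR adjusted p 0.012). Socs2 (ENSMUSG00000020027, chromosome 10, 95385362 to 95417180, minus strand) had 13, 23.1 and 13.7 CPM in WT, 31.3, 27.7, 26.2 and 24.9 in PIK3CA mutant, 396, 40, 154 and 178 in HER2 mutant and 41.6, 30.3, 39.2, 38.1 and 47.1 in double mutant samples. HER2 mutant 2 lay among the double mutants and the other 3 HER2 mutants far above, and the interaction was -3.02 (SE 0.632, edgeR adjusted p 0.0331). Socs1, an inhibitor of Jak kinases, went the other way at 1.54 (SE 0.293, edgeR adjusted p 0.0207), with WT and double mutants above both single mutants on average. Its means were 5.83 ± 0.43 CPM (SD, n = 3) in WT, 2.84 ± 0.279 CPM (SD, n = 4) in PIK3CA mutants, 2.89 ± 0.483 CPM (SD, n = 4) in HER2 mutants and 4.1 ± 0.927 CPM (SD, n = 5) in double mutants. These 3 were the genes called among 11 tested of the prolactin and Stat5 list, against 1.06% of all tested genes. The median estimate of that list was -0.13 against 0.01 (0.00837) over all tested genes. Cish missed the threshold when WT 3 was left out (highest edgeR adjusted p 0.0531). Socs1 missed the threshold when any 1 of WT 1 and 3 and PIK3CA 1, 2 and 4 was left out (highest edgeR adjusted p 0.0652). Socs2 missed the threshold when any 1 of WT 1 and 3, PIK3CA 1, 2, 3 and 4 and double 1, 4 and 5 was left out (highest edgeR adjusted p 0.132). Socs2 also missed it with limma on the normalized values (limma adjusted p 0.0588).

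Of 16 milk protein genes, 4 were called with a negative estimate (Csn2, Csn1s2a, Ltf and Xdh) and 1 with a positive estimate (Plin2). The share called over all tested genes was 1.06%. The median estimate of the milk protein genes was -2.64, and 14 of 16 estimates were negative. The mean log2 CPM of the list was 2.83 to 3.24 in WT, 3.38 to 4.12 in PIK3CA mutants, 6.11 to 8.28 in HER2 mutants and 3.30 to 5.46 in double mutants, so HER2 mutants did not overlap the other genotypes. Csn1s1 and Btn1a1, a casein and the milk fat globule protein butyrophilin, had the same order of HER2 above double mutant means but did not pass. The values of Csn1s1 were 6546 ± 5246 CPM (SD, n = 4) in HER2 mutants and 1839 ± 536 CPM (SD, n = 5) in double mutants, with an interaction of -2.52 (SE 0.875, edgeR adjusted p 0.195). Csn3, kappa-casein, did not have that order, with 4184 ± 991 CPM (SD, n = 3) in WT, 10976 ± 2649 CPM (SD, n = 4) in PIK3CA, 12191 ± 6016 CPM (SD, n = 4) in HER2 and 13118 ± 5480.3 CPM (SD, n = 5) in double mutants and an interaction of -1.29 (SE 0.605, edgeR adjusted p 0.368). Btn1a1 had 215 ± 151 CPM (SD, n = 4) in HER2 mutants and 8.39 ± 7.53 CPM (SD, n = 5) in double mutants, with an interaction of -3.40 (SE 0.913, edgeR adjusted p 0.0885).

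Xdh encodes xanthine dehydrogenase, which the gland also uses in secreting milk fat globules. Xdh (ENSMUSG00000024066, chromosome 17, 73883895 to 73950196, minus strand) had 224, 244 and 196 CPM in WT, 416, 406, 505 and 394 in PIK3CA mutant, 613, 709, 586 and 307 in HER2 mutant and 239.7, 282, 249, 317 and 270.2 in double mutant samples. Every PIK3CA mutant sample was above every WT and double mutant sample, and 4 of the 5 double mutants lay above the highest WT sample. PIK3CA minus WT was 0.96 (SE 0.218) and double minus HER2 was -1.03 (SE 0.187), an interaction of -1.99 (SE 0.288, edgeR adjusted p 0.0071) that was called in all 16 fits with 1 sample left out. Plin2, the coat protein of lipid droplets, had the opposite sign at 2.15 (SE 0.387, edgeR adjusted p 0.0158). It had 1341, 1072 and 1731 CPM in WT and 365 to 449 in PIK3CA, 283 to 922 in HER2 and 633 to 756 in double mutants, so that WT was highest and the mutants overlapped in part. Plin2 missed the threshold when WT 3 was left out (highest edgeR adjusted p 0.0652). Ltf, encoding the iron-binding milk protein lactoferrin, had an interaction of -8.53 (SE 1.8, edgeR adjusted p 0.0352) with HER2 mutants from 86 to 7383 CPM. Ltf missed the threshold when any 1 of WT 1, 2 and 3, PIK3CA 1, 2, 3 and 4 and double 1, 4 and 5 was left out (highest edgeR adjusted p 0.156). Ltf also missed it with limma on the normalized values (limma adjusted p 0.0514).

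**Figure D3:**
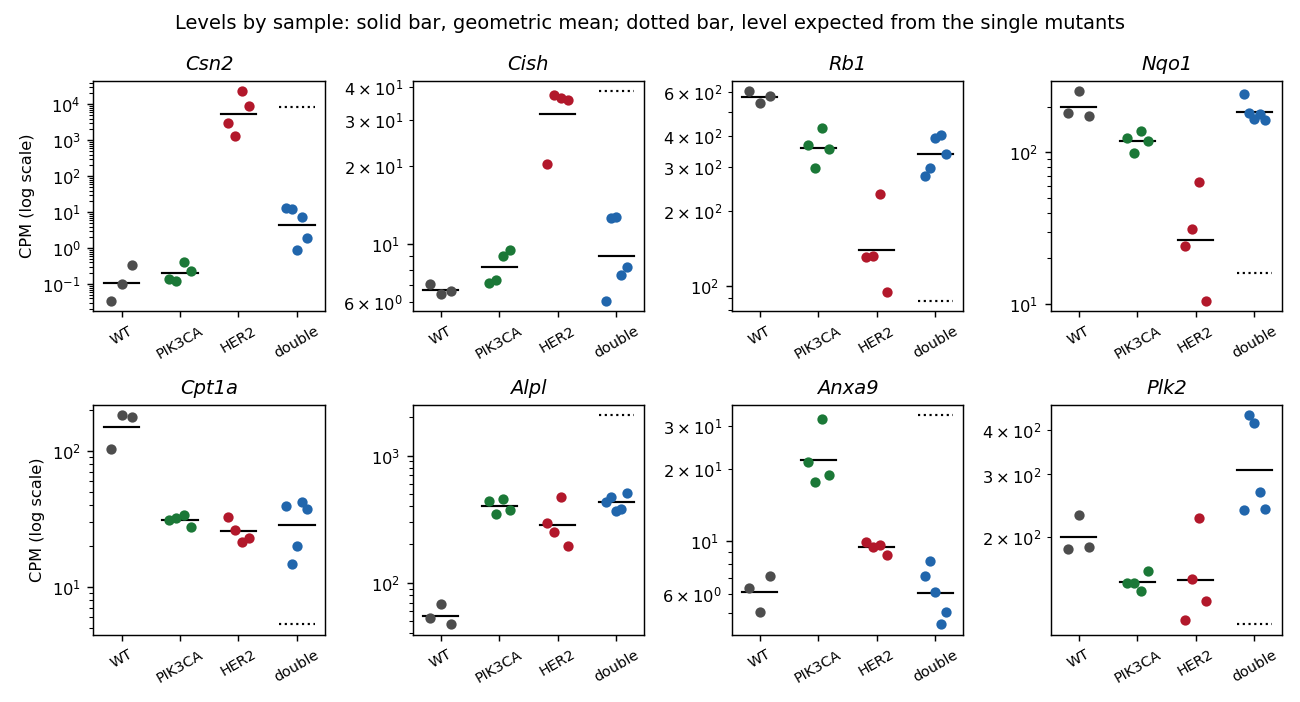
Levels of 8 genes (CPM, log axis) in each of the 16 samples, by genotype. Solid bars are geometric means and dotted bars the double mutant level expected from the single mutants. Csn2 and Cish are high in HER2 mutants, Rb1 and Nqo1 low in HER2 mutants, Cpt1a high and Alpl low in WT, Anxa9 high in PIK3CA mutants and Plk2 high in double mutants.

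Other genes were high in HER2 mutants and far lower in double mutants. Bmf, a pro-apoptotic protein of the BCL2 family, had 16.9, 15.4 and 18.3 CPM in WT, 23.9, 20.8, 19.5 and 25.5 in PIK3CA mutant, 70.8, 43.8, 62.2 and 92.1 in HER2 mutant and 11.7, 24.9, 12.5, 15.3 and 12.7 in double mutant samples. The 4 HER2 mutants lay above all 12 other samples, and double mutants overlapped both WT and PIK3CA mutants. Its interaction was -2.54 (SE 0.353, edgeR adjusted p 0.00522). Slc45a3, a transporter of the solute carrier family, had 128, 102, 218 and 178 CPM in HER2 mutants and 31.5, 69.6, 27.6, 24.8 and 30 CPM in double mutants, with double mutant 2 highest. It had 12.5 to 17.5 CPM in WT, below all double mutants, 24.6 to 39.5 CPM in PIK3CA mutants and an interaction of -3.09 (SE 0.455, edgeR adjusted p 0.0071). Over the 25 genes for which HER2 mutants stood apart higher, the median HER2 minus WT difference was 2.12 and the median double minus PIK3CA difference 0.04 (0.0376) on the log2 scale. In 20 of them no HER2 mutant sample overlapped any other sample.

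For 26 called genes HER2 mutants stood apart lower, with median differences of -2.69 for HER2 minus WT and -0.04 (-0.0383) for double minus PIK3CA. In 21 of them no HER2 mutant sample overlapped another. Rb1, the retinoblastoma protein that restrains entry into S phase and is the substrate of CDK4 and CDK6, is in this group (ENSMUSG00000022105, chromosome 14, 73183673 to 73325822, minus strand). It had 603, 544 and 578 CPM in WT, 368, 297, 430.1 and 354 in PIK3CA mutant, 131, 132, 234 and 94.6 in HER2 mutant and 277, 297, 391, 403 and 338 in double mutant samples. All HER2 mutants were below all other samples, and the double and PIK3CA mutants overlapped. HER2 minus WT was -1.96 (SE 0.239), double minus PIK3CA was -0.09 (SE 0.209) and the interaction was 1.87 (SE 0.318, edgeR adjusted p 0.012), called in all 16 fits with 1 sample left out.

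Rb1 was the 1 gene called among 20 of the axis of p21, its kinase partners CDK4/6 and cyclin D, which the series title names. Over all tested genes, 257 of 24252 (1.06%) were called. The median estimate of the 20 was 0.03 (0.0294). Cdkn1a, which encodes p21, had 17.8, 51.4 and 25.6 CPM in WT, 73.7, 85.1, 65.7 and 156 in PIK3CA mutant, 263, 68.8, 209 and 57.7 in HER2 mutant and 148, 331, 324, 158 and 167 in double mutant samples. Its values in all mutants exceeded those of WT, and its interaction was -0.9999 (SE 0.696, edgeR adjusted p 0.583). Ccnd1, encoding cyclin D1, had 70.7, 119.6 and 55.5 CPM in WT, 344, 286, 176 and 265 in PIK3CA mutant, 512, 164, 162 and 183 in HER2 mutant and 477, 297, 332, 504 and 545 in double mutant samples. Again every mutant sample was above every WT sample, HER2 mutant 1 stood with the highest double mutants, and the interaction was -0.95 (SE 0.524, edgeR adjusted p 0.458). The p-values of Cdkn1a and Ccnd1 do not show that their changes added up on the log2 scale.

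Nqo1, a quinone reductase of the antioxidant response (ENSMUSG00000003849, chromosome 8, 107388225 to 107403206, minus strand), had 182, 252 and 174 CPM in WT, 125, 99.3, 137 and 119 in PIK3CA mutant, 24, 31.1, 63.8 and 10.6 in HER2 mutant and 241, 181, 165, 179.6 and 163 in double mutant samples. HER2 mutants lay below all other samples and double mutants at the level of WT, with an interaction of 3.27 (SE 0.516, edgeR adjusted p 0.0089). Otud7a, a deubiquitinase, had 13.2, 21.8 and 9.39 CPM in WT, 12.3, 16.4, 15.9 and 11.2 in PIK3CA mutant, 2.02, 0.906, 1.91 and 1.88 in HER2 mutant and 17.3, 7.15, 12.4, 15.8 and 24.3 in double mutant samples. The 3 other genotypes overlapped and HER2 mutants lay below them, with an interaction of 3.28 (SE 0.503, edgeR adjusted p 0.0081). Hey2, a transcriptional repressor of the Notch pathway, had 0.113, 0.347, 0.668 and 0.532 CPM in HER2 mutants and 14.8, 2.2, 4.77, 4.36 and 6.01 CPM in double mutants, with an interaction of 3.85 (SE 0.775, edgeR adjusted p 0.0272). Col8a2, a collagen chain, had 0.339, 1.75, 1.98 and 0.983 CPM in HER2 mutants, 7.66, 3.88, 6.03, 3.86 and 3.99 CPM in double mutants and an interaction of 3.43 (SE 0.587, edgeR adjusted p 0.0126). HER2 mutant samples did not overlap any other sample for either gene. Hey2 missed the threshold when any 1 of WT 1 and 3 and PIK3CA 2, 3 and 4 was left out (highest edgeR adjusted p 0.0678).

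Among genes of basal and myoepithelial cells, the contractile genes Mylk and Myh11 were also low in HER2 mutants. Mylk, myosin light chain kinase, had 16.4, 40.2 and 42 CPM in WT, 20.1, 23, 23.1 and 23 in PIK3CA mutant, 2.02, 4.9, 4.23 and 8.56 in HER2 mutant and 17, 10.6, 25.6, 20.6 and 17.6 in double mutant samples. HER2 mutants lay below all others, with an interaction of 2.45 (SE 0.53, edgeR adjusted p 0.039). Myh11, smooth muscle myosin heavy chain, had 5.58, 12 and 8.29 CPM in WT, 2.5, 3.24, 5.07 and 2.98 in PIK3CA mutant, 1.36, 1.45, 1.13 and 0.962 in HER2 mutant and 2.46, 2.37, 2.12, 2.22 and 1.07 in double mutant samples. WT was highest and HER2 mutants low, and double mutant 5 lay among the HER2 mutants. Its interaction was 2.06 (SE 0.441, edgeR adjusted p 0.0369). They were the 2 genes called among 14 of the basal and myoepithelial list, against 1.06% of all tested genes. In that list 11 estimates were positive and the median was 0.54. The mean log2 CPM of that list was 4.27 to 5.31 in WT, 4.39 to 5.26 in PIK3CA, 2.79 to 3.77 in HER2 and 3.80 to 4.89 in double mutants. Acta2 and Tagln, smooth muscle actin and transgelin, are contractile genes of the list that did not pass, at -0.21 (SE 0.775, edgeR adjusted p 0.94) and -0.28 (SE 0.55, edgeR adjusted p 0.879). Acta2 had 82.6 ± 43.3 CPM (SD, n = 3) in WT and 41 ± 38.5 CPM (SD, n = 4) in HER2 mutants, and Tagln 0.847 ± 0.283 CPM (SD, n = 3) in WT and 0.937 ± 0.425 CPM (SD, n = 4) in HER2 mutants. Mylk missed the threshold when any 1 of WT 2 and 3, PIK3CA 1, 2, 3 and 4, HER2 3 and double 1, 3, 4 and 5 was left out (highest edgeR adjusted p 0.137). Myh11 missed the threshold when any 1 of WT 2 and 3, PIK3CA 1, 2 and 4, HER2 3 and 4 and double 1 and 4 was left out (highest edgeR adjusted p 0.102). Myh11 also missed it with limma voom (limma adjusted p 0.0551).

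**Figure D4:**
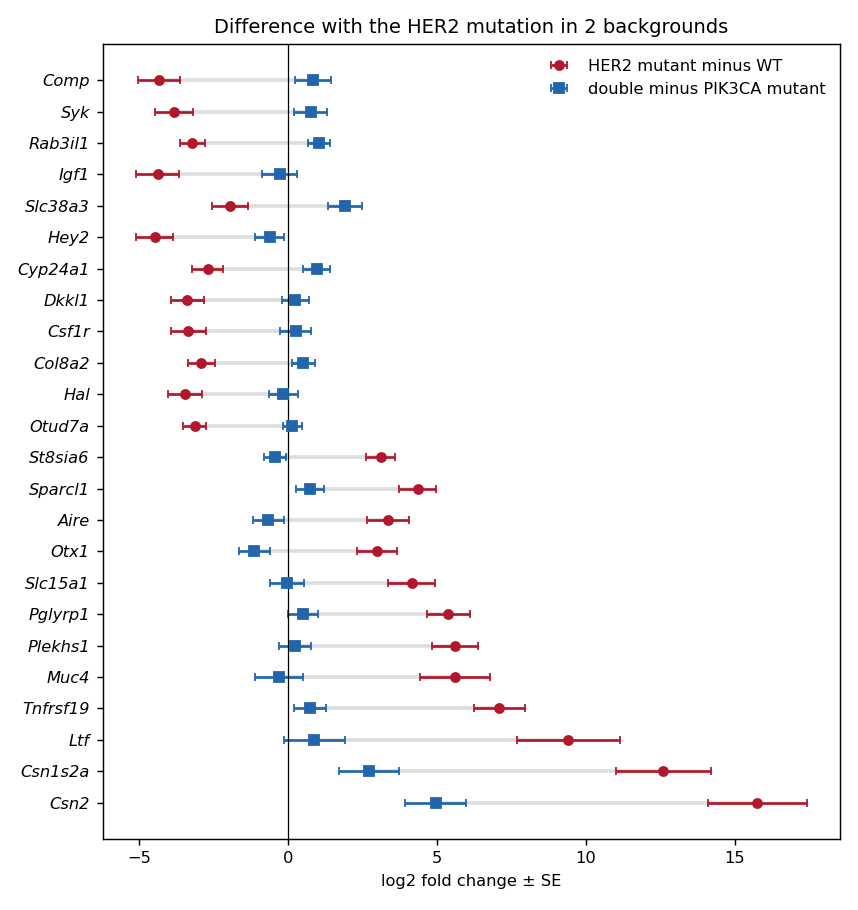
Log2 differences with the SE are shown for the 12 most positive and 12 most negative called genes (mean log2 CPM of at least 1). Red circles compare samples with and without the HER2 mutation in the WT background (HER2 mutant minus WT), where source also differs. Blue squares do so in the PIK3CA mutant background (double minus PIK3CA mutant). Red circles lie far from 0, while the blue squares lie between -1.14 (Otx1) and 4.95 (Csn2).

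In the largest group, WT was unlike all mutants. The sorting rule itself puts the double mutant near the single mutants in this group, not at the sum of their changes. The medians of this group describe genes sorted on the same values. Over the 79 genes that were highest in WT, the median difference from WT was -3.24 for HER2 and -3.32 for PIK3CA mutants. Adding the HER2 mutation to the PIK3CA mutant gave a median difference of 0.37, and adding the PIK3CA to the HER2 mutation 0.21. For 34 of these 79 the level expected by the sum was under 0.0591 CPM, the highest level that 3 counts give in a double mutant library, so it could not have been measured. In 76 of the 79 no WT sample overlapped a mutant sample.

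Cpt1a, which carries fatty acids into mitochondria (ENSMUSG00000024900, chromosome 19, 3322334 to 3385733, plus strand), shows the pattern at levels well above that limit. It had 103, 183 and 177 CPM in WT, 31.1, 32.1, 33.8 and 27.5 in PIK3CA mutant, 32.9, 26.4, 21.5 and 23.2 in HER2 mutant and 39.6, 14.7, 20.1, 42.3 and 37.5 in double mutant samples. The 13 mutant samples overlapped and all lay below WT. PIK3CA minus WT was -2.31 (SE 0.312), HER2 minus WT was -2.57 (SE 0.314) and double minus PIK3CA was -0.01 (SE 0.271), where the sum put the double mutants at 5.34 CPM. The interaction was 2.56 (SE 0.415, edgeR adjusted p 0.0098). Cndp2, a dipeptidase, had 39.2 to 61.7 CPM in WT and 20.1 to 23.4, 20.5 to 27 and 23.7 to 30.8 CPM in PIK3CA, HER2 and double mutants, and an interaction of 1.37 (SE 0.216, edgeR adjusted p 0.0089). Angptl4, an inhibitor of lipoprotein lipase chosen after its values were seen, had 99.4, 262 and 237 CPM in WT, 16.6, 17.2, 8.19 and 16.9 in PIK3CA mutant, 15, 18.2, 20.5 and 7.21 in HER2 mutant and 6.33, 5.64, 11.4, 8.85 and 7.29 in double mutant samples. WT lay above all mutants, and the interaction was 2.81 (SE 0.507, edgeR adjusted p 0.0158). Angptl4 kept the call in 15 of the 16 fits with 1 sample left out.

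The most positive estimate among the named genes was that of Comp, cartilage oligomeric matrix protein (ENSMUSG00000031849, chromosome 8, 70373558 to 70382066, plus strand). It had 15, 68.3 and 31.5 CPM in WT, 0.461, 0.475, 2.37 and 1 in PIK3CA mutant, 1.34, 2.35, 2.4 and 1.47 in HER2 mutant and 0.833, 0.566, 1.47, 2.66 and 4.01 in double mutant samples. All mutants lay below WT and overlapped, and the interaction was 5.17 (SE 0.929, edgeR adjusted p 0.0158). Comp was the only call among 22 matrix and adhesion genes (median estimate 0.47, 14 positive), against 1.06% of all tested genes. Rab3il1, an exchange factor for Rab proteins, had 16.1, 13.8 and 26.8 CPM in WT, 2.75, 1.4, 1.86 and 1.46 in PIK3CA mutant, 2.15, 3.82, 1.2 and 0.962 in HER2 mutant and 3.46, 3.17, 3.04, 4.69 and 4.96 in double mutant samples, with an interaction of 4.26 (SE 0.56, edgeR adjusted p 0.00521). Both were called in all 16 fits with 1 sample left out. Igf1, the insulin-like growth factor, had 18.5 to 76.2 CPM in WT and 0.734 to 4.24 CPM in double mutants, with an interaction of 4.10 (SE 0.916, edgeR adjusted p 0.0443). Slc38a3, a glutamine transporter, was at 107, 127 and 198 CPM in WT, 10.2, 5, 7.26 and 5.61 in PIK3CA, 75.5, 13.4, 25.6 and 33.3 in HER2 and 43.7, 7.87, 7.48, 38.8 and 34.9 in double mutants. Double mutants 2 and 3 lay with the PIK3CA mutants and the 3 others with the HER2 mutants, and the interaction was 3.88 (SE 0.833, edgeR adjusted p 0.0379). Igf1 missed the threshold when any 1 of WT 1 and 3, PIK3CA 1, 2, 3 and 4, HER2 1 and 3 and double 1, 3, 4 and 5 was left out (highest edgeR adjusted p 0.178). Slc38a3 missed the threshold when any 1 of WT 1, 2 and 3, PIK3CA 1, 2, 3 and 4, HER2 3 and 4 and double 1, 4 and 5 was left out (highest edgeR adjusted p 0.127).

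Cyp24a1, which inactivates vitamin D, had 19.9 to 26.5 CPM in WT and 2.07 to 6.39 CPM in double mutants, with an interaction of 3.67 (SE 0.685, edgeR adjusted p 0.0189). Dkkl1, a secreted protein related to the Dickkopf family, had 5.78 to 20.8 CPM in WT and 1.75 to 3.88 CPM in double mutants, with an interaction of 3.63 (SE 0.712, edgeR adjusted p 0.0242). Hal, histidine ammonia-lyase, had 10.1 to 42 CPM in WT and 0.55 to 2.38 CPM in double mutants, with an interaction of 3.30 (SE 0.751, edgeR adjusted p 0.048). For all 3, no mutant sample reached the lowest WT sample. Cyp24a1 missed the threshold when any 1 of WT 3 and PIK3CA 2 and 4 was left out (highest edgeR adjusted p 0.0652). Dkkl1 missed the threshold when any 1 of WT 1 and 3 and PIK3CA 2, 3 and 4 was left out (highest edgeR adjusted p 0.0907). Hal missed the threshold when any 1 of WT 1 and 3, PIK3CA 1, 2, 3 and 4, HER2 2, 3 and 4 and double 1, 4 and 5 was left out (highest edgeR adjusted p 0.204). Hal also missed it with limma on the normalized values, limma voom and the offset for GC content and length (limma and edgeR highest adjusted p 0.0614).

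Some of the genes high in WT are leukocyte genes. Csf1r, the receptor for the macrophage growth factor CSF1, had 40.8, 12.5 and 79.8 CPM in WT, 1.54, 1.38, 1.17 and 1.54 in PIK3CA mutant, 9.68, 4.09, 2.49 and 1.11 in HER2 mutant and 1.54, 1.78, 1.88, 1.33 and 1.87 in double mutant samples. Mutant samples all lay below WT, HER2 mutant 1 being nearest, and the interaction was 3.60 (SE 0.781, edgeR adjusted p 0.0392). Syk, a kinase of immune receptor signalling also found in epithelium, had 17.9, 13.4 and 50.5 CPM in WT, 0.795, 0.806, 0.576 and 1.38 in PIK3CA mutant, 3.34, 3.14, 0.89 and 0.307 in HER2 mutant and 2.25, 1.32, 1.26, 1.26 and 1.46 in double mutant samples, with WT above all mutants and an interaction of 4.59 (SE 0.849, edgeR adjusted p 0.0179). These 2 were called among 16 macrophage and leukocyte markers, against 1.06% of all tested genes. Of the 16 markers, 15 had a positive estimate, with a median of 2.46. By mean log2 CPM the 16 markers were at 4.51 to 6.51 in WT, -1.21 to 0.25 in PIK3CA, -1.68 to 3.09 in HER2 and -1.61 to -1.27 in double mutants, and none was at 0 in all samples of a genotype. Lyz2, a macrophage lysozyme of that list, was at 1109, 404 and 2649 CPM in WT and 142, 58.2, 0.2 and 0.123 CPM in HER2 mutants, with at most 7.84 CPM in any other mutant. Fibroblast markers summed over 10 genes to 979.9 to 3068 CPM in WT and 46.87 to 1544 CPM in the mutants, so these ranges overlapped. The 10 fibroblast markers had 0 called and a median estimate of -0.08. Their part in the genes highest in WT was not tested. Csf1r missed the threshold when any 1 of WT 1 and 3, PIK3CA 1, 2, 3 and 4, HER2 3 and double 1, 3, 4 and 5 was left out (highest edgeR adjusted p 0.161). Syk missed the threshold when any 1 of WT 3 and PIK3CA 2 and 3 was left out (highest edgeR adjusted p 0.0772).

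For 64 called genes WT was lowest, with median differences from WT of 2.35 in HER2 and 1.94 in PIK3CA mutants. Adding the second mutation gave medians of -0.10 (HER2 added) and -0.49 (PIK3CA added). In 57 of the 64 no WT sample overlapped a mutant sample.

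Alpl, tissue-nonspecific alkaline phosphatase (ENSMUSG00000028766, chromosome 4, 137741733 to 137796384, minus strand), had 52.9, 67.7 and 47.2 CPM in WT, 442, 349, 452 and 374 in PIK3CA mutant, 294, 251, 468 and 193 in HER2 mutant and 434, 471, 366, 379 and 508 in double mutant samples, where the sum put double mutants at 2075 CPM against a geometric mean of 428 CPM. Every mutant sample was above every WT sample, and the interaction was -2.33 (SE 0.322, edgeR adjusted p 0.00521). Cd163, the haemoglobin-haptoglobin scavenger receptor, had 3.57, 7.62 and 4.8 CPM in WT, 65.2, 51.8, 60.1 and 47.8 in PIK3CA mutant, 29.5, 21, 20 and 20.7 in HER2 mutant and 49.6, 46.9, 48.5, 61.1 and 54.7 in double mutant samples, with an interaction of -2.21 (SE 0.293, edgeR adjusted p 0.00521). Cd163 is used as a macrophage marker elsewhere, yet it was lowest in WT, where the macrophage list was highest. HER2 mutants lay below the other mutants for Cd163, and for Alpl the mutant genotypes overlapped. The calls of Alpl and Cd163 were kept in all 16 fits with 1 sample left out and in all 13 other settings.

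Tnfrsf19, a receptor of the tumour necrosis factor family expressed in epithelial progenitors, had 0.245, 0.2 and 0.0667 CPM in WT, 3.48, 3.78, 4.69 and 3.79 in PIK3CA mutant, 44.5, 4.55, 16.7 and 28.2 in HER2 mutant and 5.87, 14.7, 3.02, 4.93 and 4.47 in double mutant samples. WT held 14, 10 and 4 counts, HER2 mutants 1, 3 and 4 were highest, and the interaction was -6.35 (SE 0.932, edgeR adjusted p 0.0071). Plekhs1, a pleckstrin homology domain protein, had 0.857 to 3.56 CPM in WT and 30.4 to 45.5, 50.1 to 158 and 15.6 to 88.7 CPM in PIK3CA, HER2 and double mutants, with an interaction of -5.38 (SE 0.873, edgeR adjusted p 0.0098). Both kept the call in all 16 fits with 1 sample left out. St8sia6, a sialyltransferase, had 2.84 to 6.26 CPM in WT, 23.4 to 67.1 CPM in double mutants and an interaction of -3.56 (SE 0.595, edgeR adjusted p 0.0113). Pglyrp1, an antibacterial peptidoglycan recognition protein, had 1.24 to 3.2 CPM in WT, 17.4 to 67.4 CPM in double mutants and an interaction of -4.88 (SE 0.813, edgeR adjusted p 0.0113). St8sia6 missed the threshold when WT 3 was left out (highest edgeR adjusted p 0.0526). Pglyrp1 missed the threshold when WT 3 was left out (highest edgeR adjusted p 0.0583).

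Muc4, a membrane mucin that binds ErbB2, had 0.979, 3.52 and 0.25 CPM in WT, 51.6, 30.4, 35.8 and 41.9 in PIK3CA mutant, 37.3, 76.6, 171 and 18.7 in HER2 mutant and 7.57, 109, 13.2, 22.6 and 9.55 in double mutant samples. Double mutant 2 lay within the range of the HER2 mutants and the other 4 below all PIK3CA mutants, and the interaction was -5.90 (SE 1.36, edgeR adjusted p 0.0495). Sparcl1, a matricellular protein, had 7.7 to 19.4 CPM in WT, 101 to 284 CPM in double mutants and an interaction of -3.62 (SE 0.728, edgeR adjusted p 0.0271). Slc15a1, a peptide transporter, and Aire, the autoimmune regulator, had interactions of -4.19 (SE 0.941, edgeR adjusted p 0.0455) and -4.03 (SE 0.857, edgeR adjusted p 0.0359). Muc4 missed the threshold when any 1 of WT 1 and 3, PIK3CA 1, 2, 3 and 4, HER2 2 and 3 and double 1, 3, 4 and 5 was left out (highest edgeR adjusted p 0.173). Muc4 also missed it with median-of-ratios scaling, upper-quartile scaling, the robust fit and the offset for GC content and length (edgeR highest adjusted p 0.0582). Sparcl1 missed the threshold when any 1 of WT 1, 2 and 3, PIK3CA 1, 3 and 4 and double 4 was left out (highest edgeR adjusted p 0.0843). Slc15a1 missed the threshold when any 1 of WT 1, 2 and 3, PIK3CA 1, 2, 3 and 4 and double 1, 2, 3, 4 and 5 was left out (highest edgeR adjusted p 0.174). Slc15a1 also missed it with limma on the normalized values (limma adjusted p 0.0913). Aire missed the threshold when any 1 of WT 1 and 3, PIK3CA 1, 2, 3 and 4 and double 1, 3, 4 and 5 was left out (highest edgeR adjusted p 0.132).

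Few called genes set PIK3CA mutants apart. Anxa9, an annexin (ENSMUSG00000015702, chromosome 3, 95296096 to 95307176, minus strand), had 6.38, 5.06 and 7.14 CPM in WT, 21.4, 17.5, 32.1 and 18.7 in PIK3CA mutant, 9.9, 9.44, 9.57 and 8.72 in HER2 mutant and 7.15, 8.22, 6.1, 4.49 and 5.06 in double mutant samples. PIK3CA mutants were above all other samples, and the double mutants overlapped WT. PIK3CA minus WT was 1.86 (SE 0.251), double minus HER2 was -0.60 (SE 0.208) and the interaction was -2.46 (SE 0.323, edgeR adjusted p 0.00521). Arrb1, beta-arrestin 1, had 148, 193 and 109 CPM in WT, 379, 331, 373 and 357 in PIK3CA mutant, 227, 195, 200.1 and 195 in HER2 mutant and 203, 194, 247, 218 and 216 in double mutant samples. PIK3CA mutants were again above all others and the double mutants overlapped the HER2 mutants, with an interaction of -1.19 (SE 0.211, edgeR adjusted p 0.0153). Both calls held in all 16 fits with 1 sample left out. The third gene, Ccdc60, fell outside the naming rule and is named after its values were seen. It had 4.95 ± 0.799 CPM (SD, n = 4) in PIK3CA and 1.27 ± 0.387 CPM (SD, n = 5) in double mutants and an interaction of -3.02 (SE 0.594, edgeR adjusted p 0.0246). Ccdc60 kept the call in 11 of the 16 fits with 1 sample left out. No called gene had PIK3CA mutants apart below the rest.

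Double mutants stood apart for 4 called genes, 1 higher and 3 lower. Plk2, a polo-like kinase induced by stress, had 185, 230.3 and 187 CPM in WT, 148, 148, 141 and 160.1 in PIK3CA mutant, 116, 152, 226 and 131 in HER2 mutant and 237, 441, 419, 267 and 240.2 in double mutant samples. Double mutants lay above all others, replicates 2 and 3 being highest, with an interaction of 1.46 (SE 0.328, edgeR adjusted p 0.0452). Pcmtd2, of the protein-L-isoaspartate methyltransferase family, had 53.9, 62.9 and 52.6 CPM in WT, 62.7, 73.6, 77.3 and 64.4 in PIK3CA mutant, 56.7, 45.7, 54.2 and 50.3 in HER2 mutant and 38.4, 40, 34.9, 36.1 and 33 in double mutant samples. Double mutants lay below all others, with an interaction of -0.80 (SE 0.163, edgeR adjusted p 0.0288). Klhdc7a, a kelch domain protein, and Gm24258 fell outside the naming rule and were seen first by their values. Klhdc7a had 218 ± 26.5 CPM (SD, n = 4) in HER2 and 111 ± 21.7 CPM (SD, n = 5) in double mutants and an interaction of -1.22 (SE 0.254, edgeR adjusted p 0.0329). Gm24258, with a mean of 0.22 CPM in HER2 mutants, had -4.95 (SE 1.11, edgeR adjusted p 0.0443). Klhdc7a kept the call in 7 and Gm24258 in 2 of the 16 fits with 1 sample left out. Plk2 missed the threshold when any 1 of WT 1, 2 and 3, PIK3CA 1, 2, 3 and 4, HER2 1, 2 and 4 and double 3 and 4 was left out (highest edgeR adjusted p 0.114). Plk2 also missed it with upper-quartile scaling and the offset for GC content and length (edgeR highest adjusted p 0.0758). Pcmtd2 missed the threshold when any 1 of WT 1 and 3, PIK3CA 2, 3 and 4 and double 4 and 5 was left out (highest edgeR adjusted p 0.127). Pcmtd2 also missed it with no filter on low counts (edgeR adjusted p 0.0684).

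Genes of ErbB signalling included called members in both directions. Of 12 ErbB receptors and adaptors, Grb7 was called negative and Shc1 positive, where 1.06% of all tested genes were called. The median estimate of the 12 was 0.06. Grb7, an adaptor that binds ErbB2 and whose gene neighbours Erbb2, had 81.9, 67.6 and 80.7 CPM in WT, 80.3, 107, 108 and 105 in PIK3CA mutant, 58.7, 60.9, 53.5 and 41.4 in HER2 mutant and 27.9, 34.6, 37.6, 34.4 and 26.9 in double mutant samples. Double mutants lay below all other samples, HER2 mutants next, and PIK3CA mutants were highest by mean, with an interaction of -1.11 (SE 0.218, edgeR adjusted p 0.0242). Shc1, the adaptor that links receptors to RAS, had 139, 163 and 149 CPM in WT, 99, 94.6, 106 and 102 in PIK3CA mutant, 69.6, 96.4, 99.7 and 83.3 in HER2 mutant and 112, 99.1, 105, 135 and 132 in double mutant samples. WT was highest, and double mutants lay above HER2 mutants except replicate 2, which was just below HER2 mutant 3. Its interaction was 1.00 (SE 0.189, edgeR adjusted p 0.0202). Erbb3, the partner receptor of ErbB2, had 317 ± 10.6 CPM (SD, n = 4) in PIK3CA, 207 ± 32.1 CPM (SD, n = 4) in HER2 and 140.1 ± 13.3 CPM (SD, n = 5) in double mutants, and did not pass at -0.70 (SE 0.183, edgeR adjusted p 0.0819). Grb7 missed the threshold when any 1 of WT 1, 2 and 3 and PIK3CA 2, 3 and 4 was left out (highest edgeR adjusted p 0.0772). Shc1 missed the threshold when any 1 of WT 3 and PIK3CA 2 was left out (highest edgeR adjusted p 0.0714).

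Of 10 ErbB ligands tested, Nrg4, a ligand of ErbB4, was called (1.06% over all tested genes). It had 10.3 to 16 CPM in WT and 3.37 to 4, 2.77 to 6.57 and 3.85 to 5.17 CPM in PIK3CA, HER2 and double mutants, with an interaction of 1.84 (SE 0.365, edgeR adjusted p 0.025). WT stood above all mutants. Otx1, a homeobox factor, was the graded gene among the 12 most negative, with 18.2, 14.5, 6.6 and 13.9 CPM in PIK3CA, 35, 6.4, 10.3 and 18.9 in HER2 and 2.87, 7.82, 13.6, 2.99 and 2.99 in double mutants. WT was at 1.7 to 2.89 CPM, the double mutants reached from that level to within the single mutants, and the interaction was -4.13 (SE 0.842, edgeR adjusted p 0.0291). Nrg4 missed the threshold when any 1 of WT 1 and 3, PIK3CA 1, 2, 3 and 4 and double 4 was left out (highest edgeR adjusted p 0.0925). Otx1 missed the threshold when any 1 of WT 1, 2 and 3, PIK3CA 1, 2 and 4 and double 4 and 5 was left out (highest edgeR adjusted p 0.0927).

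**Figure D5:**
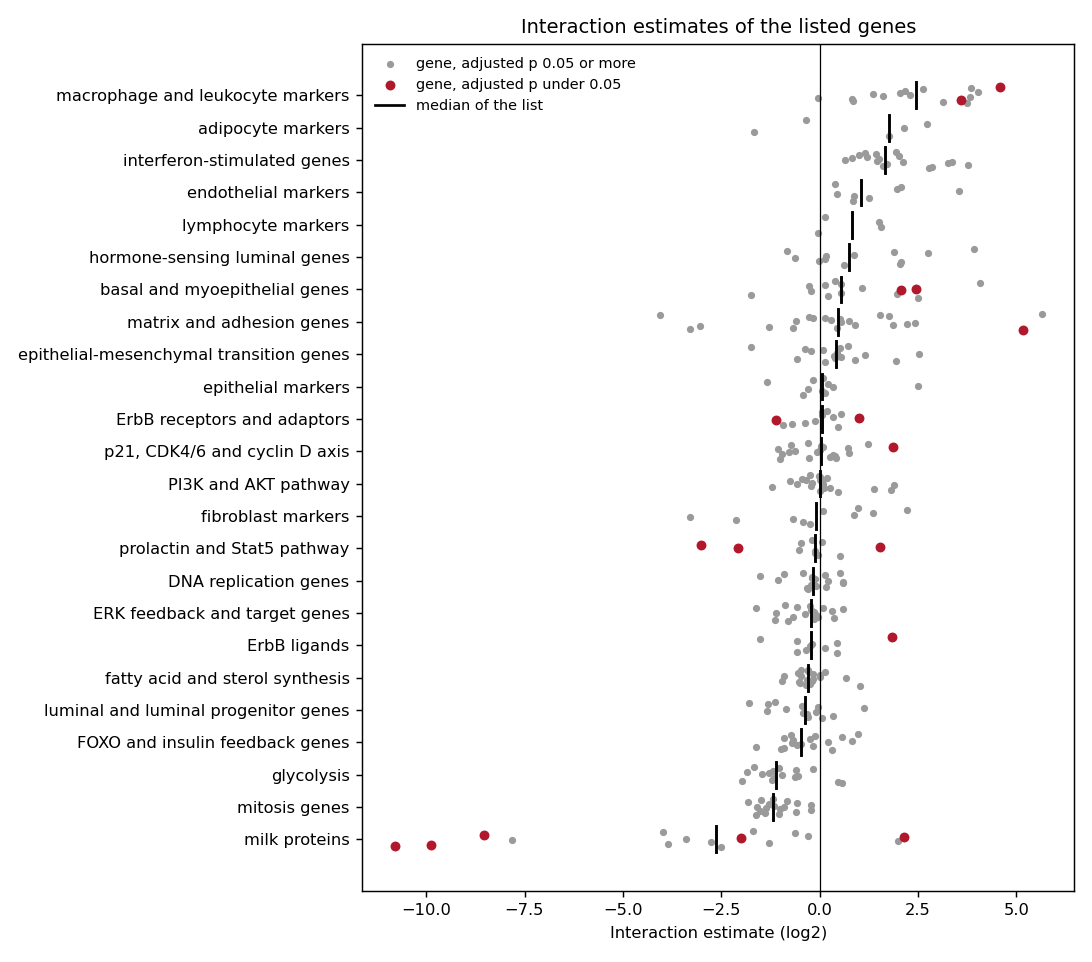
Interaction estimates (log2) of the genes of 18 pathway lists and 6 cell type marker lists, one row per list ordered by median. Red points are called genes, grey points the others and black bars the medians. Milk proteins have the lowest median (-2.64) and macrophage and leukocyte markers the highest (2.46).

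Over all 24252 tested genes edgeR called 257 (1.06%), 3291 had an unadjusted p under 0.05 and DESeq2 called 966. The short lists below with 0 called by edgeR are near that share. The PI3K and AKT pathway itself had 0 of 21 genes called by edgeR, 5 at an unadjusted p under 0.05 and a median estimate of 0.00 (0.000506). DESeq2 called 1 of them. FOXO and insulin feedback genes, which AKT represses through FOXO factors, had 0 of 17 called by edgeR, 7 at an unadjusted p under 0.05 and a median of -0.46, and DESeq2 called 5, all negative. Irs1, the insulin receptor substrate, was lowest of these at -1.61 (SE 0.457, edgeR adjusted p 0.108), with 349 ± 175 CPM (SD, n = 4) in HER2 and 148 ± 45.7 CPM (SD, n = 5) in double mutants. ERK feedback and target genes had 0 of 19 called by edgeR, 3 at an unadjusted p under 0.05 and a median of -0.22, with 2 called by DESeq2.

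Interferon-stimulated genes had positive estimates in 18 of 18, a median of 1.66 and 9 at an unadjusted p under 0.05, but 0 called by edgeR and 2 by DESeq2. Ifit3, an antiviral effector, had the highest estimate at 3.78 (SE 1.2, edgeR adjusted p 0.156). Without double mutants 2 and 3, 4 of the 18 were called. Mitosis genes had negative estimates in 18 of 18, a median of -1.18 and 4 at an unadjusted p under 0.05, with 0 called by edgeR and 1 by DESeq2. Mki67, the proliferation marker Ki-67, was at 32.1 ± 21.2 CPM (SD, n = 3) in WT, 71.9 ± 28.8 CPM (SD, n = 4) in PIK3CA, 111 ± 113 CPM (SD, n = 4) in HER2 and 80.3 ± 41.7 CPM (SD, n = 5) in double mutants, with an interaction of -1.63 (SE 0.925, edgeR adjusted p 0.478). DNA replication genes had 0 of 18 called, also by DESeq2, and none at an unadjusted p under 0.05.

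Glycolysis genes had 14 of 16 estimates below 0, a median of -1.10, 7 at an unadjusted p under 0.05 and 0 called by edgeR, against 4 by DESeq2. Hk2, the inducible hexokinase, had 27.8 ± 4.96 CPM (SD, n = 3) in WT and 73.3 ± 37.3 CPM (SD, n = 5) in double mutants, with an interaction of -1.96 (SE 0.463, edgeR adjusted p 0.0562). Hormone-sensing luminal genes had 0 of 12 called (median 0.75, 3 at an unadjusted p under 0.05, DESeq2 0), and luminal and luminal progenitor genes 0 of 14 (median -0.38, 4 at an unadjusted p under 0.05, DESeq2 3 negative). Fatty acid and sterol synthesis had 0 of 20 called (median -0.31, 1 at an unadjusted p under 0.05, DESeq2 0), and epithelial-mesenchymal transition genes 0 of 16 (median 0.41, 4 at an unadjusted p under 0.05, DESeq2 1). Epithelial markers had 0 of 10 called by edgeR (2 at an unadjusted p under 0.05, DESeq2 1) and a median of 0.07. The other marker lists, of fibroblasts, endothelium, lymphocytes and adipocytes, had 0 called by edgeR with 1 gene each at an unadjusted p under 0.05, and medians of -0.08, 1.06, 0.81 and 1.76.

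Some called genes were neighbours in the genome. Of the 257, 44 (17.1%) had another called gene within 100000 bases, against 5.02% of the other tested genes, and for 37 of the 44 all such neighbours had the same sign. Among all called genes, 125 were positive and 132 negative. The 44 count each pair from both sides and include overlapping genes, so they are not independent. Rb1 is one example of a called gene with called neighbours. Lpar6, a receptor for lysophosphatidic acid (chromosome 14, 73237895 to 73243294), lies within Rb1 and had 1.22 (SE 0.24, edgeR adjusted p 0.0242), and Gm17233, annotated as an antisense transcript but on the strand of Rb1, overlaps the end of Rb1. Itm2b, a transmembrane protein (chromosome 14, 73362226 to 73385289), lies outside Rb1 and had 876, 913, 1394 and 664 CPM in HER2 and 2023, 2115, 2190.0, 1792 and 1733 CPM in double mutants, with an interaction of 1.45 (SE 0.268, edgeR adjusted p 0.0179). Lpar6 kept the call in 12 and Itm2b in 14 of the 16 fits with 1 sample left out. Csn2 and Csn1s2a neighbour each other in the casein cluster on chromosome 5, and Xdh overlaps the called pseudogene Gm18068 on chromosome 17. Whether counting used strand was not given in the sources used here, so reads of overlapping genes cannot be told apart. Genes named in this paragraph other than Rb1, Csn2, Csn1s2a and Xdh were chosen after their values were seen.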

How the data were processed

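RNA of 16 organoid samples was sequenced from SMARTER mRNA-Seq libraries, per the labels' protocols. The submitters' processing notes name bcl2fastq 2.20, STAR 2.0.4b, Subread, featureCounts 1.4.5, DESeq2 1.33.5 and mm10, with no order or role. The annotation and strand setting were not given in the sources used here. The authors deposited whole-number read counts per Ensembl gene, and a table of normalized signal, which on checking equals the count divided by a DESeq2 size factor (largest relative difference 5.49e-10). Of 55774 entries, 287 identical repeats were dropped, leaving 55487 genes.

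Counts were tested with edgeR 4.0.16 in R 4.3.3 (filterByExpr, TMM factors, estimateDisp, glmQLFit, glmQLFTest, two-sided) in one fit of 16 samples with genotype as the only factor. Benjamini-Hochberg adjustment ran over 24252 genes. The SE is the absolute log2 value divided by the square root of F. Log2 CPM used a prior count of 2. At these depths 3 counts correspond to 0.0468 to 0.0659 CPM. The code was tested on simulated data.

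Named genes were Erbb2, Pik3ca, Cdkn1a and Ccnd1, the 12 most positive and 12 most negative called genes with a mean log2 CPM of at least 1 and a standard symbol, the 3 of lowest p for each genotype and direction that stood apart with no overlap of samples, and every called list member. The members, lists, rules and tests were chosen with earlier results of these data known. Alternatives were DESeq2 1.42.0, limma 3.58.1 on log2(normalized signal + 1) and with voom weights, other scalings, filters and offsets, a replicate block and samples left out. Positions are from GENCODE M21 (GRCm38, the assembly of mm10), which held 55141 of the identifiers. Of 51 genes under the naming rule, 21 overlap another gene and 9 a coding gene, and 1 is not reported here.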

Additional observations from a re-analysis of the deposited data

Results flagged for a closer look

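By the interaction test itself (edgeR), the HER2 mutant minus WT and the double minus PIK3CA mutant differences were unlike for 257 genes. Only WT came from normal breast, so genotype and source cannot be told apart in this contrast.

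Among the named genes, 153 groups of 4 or 5 samples were searched for a single sample far from its group by Dixon's test. It marked 14, where chance marks about 1 in 20 groups. HER2 mutant 1 was the high sample for Cd163 (29.5 CPM), Arrb1 (227.4 CPM) and Ccnd1 (511.7 CPM) and the low one for Cish (20.29 CPM), and HER2 mutant 2 was low for Otud7a (0.9059 CPM). Among double mutants, replicate 1 was high for Syk (2.252 CPM) and Nqo1 (241.1 CPM), replicate 2 high for Slc45a3 (69.61 CPM) and replicate 5 low for Myh11 (1.069 CPM). Among PIK3CA mutants, replicate 1 was low for Mylk (20.12 CPM) and Grb7 (80.27 CPM), replicate 2 high for Hal (1.859 CPM), and replicate 3 high for Plekhs1 (45.53 CPM) and low for Pglyrp1 (16.76 CPM).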

How the results depend on the processing

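No called gene changed sign in any setting. The 257 calls (125 positive, 132 negative) became 966 with DESeq2 (487 and 479), 2128 with limma voom and sample weights (1023 and 1105), 998 without double mutants 2 and 3 (515 and 483) and, in a setting chosen after seeing the data, 1986 without those and HER2 mutant 1 (1040 and 946). Leaving out 1 sample gave 54 to 382 calls, 22 to 195 of them positive and 32 to 222 negative. The cause was not tested. Without double mutant 2, 195 calls were positive, and without HER2 mutant 2, 222 were negative. The numbers of the replicates showed no clear pairing of the samples. The deviations of 21 same-number pairs correlated at -0.163 to 0.273, 4 of them over 0.1, and 3 of 16 samples correlated best with their own number. These correlations cannot show whether samples with the same number were handled together. With the replicate block, 35 genes were called (10 positive, 25 negative), and with the block and an offset for GC content and length 62 (22 and 40). The other settings gave 244 to 294 calls, within 1.5 times of the main count. Upper-quartile scaling gave 43.4% and the GC and length offset 43.2% positive calls, against 48.6%. With a gap of more than 2 ranges, a genotype stood apart for 115 of the called genes in place of 201. At the depth of these libraries, levels under 3 counts limit 37 called genes, whose expected double mutant level lies below that.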

Other observations

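In the fit without double mutants 2 and 3, the double mutants stood apart for 54 called genes, 24 higher and 30 lower. These were 5.41% of the 998 called genes, against 11.7% of all tested genes. All genes here were chosen after their values were seen. Thbs1, the matrix protein thrombospondin 1, had the lowest adjusted p of them. It had 833, 600.4 and 566 CPM in WT, 1154, 1960.0, 2108 and 2145 in PIK3CA mutant, 797, 2893, 1381 and 828 in HER2 mutant and 171, 1002, 839, 290.2 and 180.0 in double mutant samples. Double mutants 1, 4 and 5 lay below every other sample, and replicates 2 and 3 lay among the other genotypes. Its interaction was -4.26 (SE 0.609, edgeR adjusted p 0.00374) without replicates 2 and 3 and -3.04 (edgeR adjusted p 0.0848) with them.

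Slc7a11, the cystine-glutamate exchanger, had 7.04, 9.01 and 14.4 CPM in WT, 6.14, 3.8, 3.59 and 6.18 in PIK3CA mutant, 7.04, 14.3, 12.7 and 7.63 in HER2 mutant and 21.6, 18.7, 6.42, 28.5 and 21.9 in double mutant samples. Double mutants 1, 4 and 5 were above all other samples and replicate 2 was above the other genotypes as well, and the interaction without replicates 2 and 3 was 2.24 (SE 0.439, edgeR adjusted p 0.0164). Rars, the arginyl-tRNA synthetase, had 57.6, 51 and 57 CPM in WT, 49.4, 43.5, 46.9 and 46.4 in PIK3CA mutant, 56.4, 54.8, 59.1 and 65.8 in HER2 mutant and 97.3, 72.5, 51.5, 81.2 and 81.1 in double mutant samples, with 0.80 (SE 0.149, edgeR adjusted p 0.0132) in that fit. In the same fit the transporter Slc7a3, the factor Atf5 and Pck2, the mitochondrial phosphoenolpyruvate carboxykinase, were highest in double mutants 1, 4 and 5, at 2.90 (edgeR adjusted p 0.0222), 1.39 (edgeR adjusted p 0.0378) and 1.03 (edgeR adjusted p 0.0389). The left-out replicates 2 and 3 went the other way. Their Pck2 levels of 29.3 and 34.4 CPM were the lowest of the 16 samples, and their Atf5 levels of 32 and 34.8 CPM lay below all samples but HER2 mutant 2. For Slc7a3, replicate 3 was the lowest of all samples at 0.236 CPM and replicate 2 had 0.776 CPM. Mx1 and Isg15, of the interferon-stimulated list, were at 3.93 (edgeR adjusted p 0.0249) and 3.35 (edgeR adjusted p 0.0427) in that fit. Replicates 2 and 3 had 1.83 and 1.67 CPM of Mx1 and 5.06 and 4.67 CPM of Isg15, below the other double mutants. WT 1 had 9.2 CPM of Mx1 and 25.8 CPM of Isg15, above double mutant 1 at 7.25 and 13.8 CPM. None of these genes passed with all 16 samples. Insr, the insulin receptor, was lowest in double mutants at -0.58 (SE 0.146, edgeR adjusted p 0.0427) in that fit and -0.57 (edgeR adjusted p 0.076) with all samples.

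Dclk1, a doublecortin-like kinase, had 12.9, 18.6 and 15.1 CPM in WT, 16.2, 8.55, 16 and 22.7 in PIK3CA mutant, 48.2, 464, 116 and 96.7 in HER2 mutant and 16.6, 17.4, 25, 10.6 and 10.3 in double mutant samples and an interaction of -3.54 (SE 0.782, edgeR adjusted p 0.0424) over all samples. Atp7b, a copper transporter, had 0.961, 1.04 and 0.834 CPM in WT, 0.636, 0.971, 0.576 and 2.04 in PIK3CA mutant, 14.3, 2.47, 44.5 and 24.2 in HER2 mutant and 1.17, 0.315, 0.53, 0.314 and 0.467 in double mutant samples and an interaction of -5.41 (SE 0.992, edgeR adjusted p 0.0177). Dclk1 kept the call in 6 and Atp7b in 14 of the 16 fits with 1 sample left out.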
